A study of Mus musculus with 2 samples.

Results

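Bidirectional promoters are stretches of DNA from which 2 genes are transcribed away from each other on opposite strands. The pairs described here were chosen from the gene annotation alone: protein-coding genes of GENCODE M21 on the mouse build mm10, on opposite strands and head to head, whose outermost transcript starts lay at most 1000 bp apart without the transcripts overlapping. The rule gave 754 pairs at 733 separate loci, made of 1487 genes, which is 6.78% of the 21938 protein-coding genes, and 21 of these genes stood in more than 1 pair. A pair's region was the interval between its starts plus 500 bp on each side, with a median length of 1130.5 bp (1002 to 1988 bp). The accessibility of these regions was read from DNase-seq, in which the nuclease DNase I cuts DNA that is not shielded by nucleosomes or bound proteins, of tissue given as a layer of hippocampus, the layer itself not named. Both libraries, biological replicates 1 and 2, came from female B6CASTF1/J mice, first-generation hybrids of C57BL/6J and the wild-derived CAST strain, aged 25 days, with no treatment given. They carry the same donor entry. The labels do not state that separate animals were used, so differences between replicates may be technical. With 1 group of 2 libraries, every value below is a description of these libraries, and no test between conditions was possible.

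Head-to-head genes with close starts are a regular feature of mammalian genomes. Such promoters are mostly rich in CpG dinucleotides, lack a TATA box, and serve many genes that every dividing or respiring cell needs, such as genes of DNA repair, mitochondria, translation and the replication-dependent histones. Pre-initiation complexes form near each start, and the DNA between them is held free of nucleosomes. DNase-seq shows that the DNA is open and, as short protected stretches called footprints, where proteins may shield it, but not which gene of a pair is transcribed. The tissue is a mixture of cells, so the number of cells with an open region and the extent of opening per cell cannot be told apart.

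Bases between the starts of 11 pairs are printed because they are pairs with the strongest peaks, with the most footprints, or known from textbooks, and show where footprints lie relative to motif matches. Each is the plus strand of mm10, 5' to 3', from the RefSeq GRCm38.p6 genome, and capitals mark bases inside footprints of both replicates. The gene named first is transcribed leftwards and the gene named last rightwards. The intervals lie at chr2:26910678-26910763 (Med22/Rpl7a), chr7:125707781-125707887 (Gtf3c1/D430042O09Rik), chr3:152210303-152210421 (Dnajb4/Fubp1), chr2:11777583-11777875 (Fbh1/Ankrd16), chr5:124327973-124328088 (Mphosph9/2810006K23Rik) and chr5:120612590-120612738 (Rita1/Ddx54). The remaining intervals lie at chr10:80701978-80702183 (Mob3a/Izumo4), chr11:84129601-84129671 (Tada2a/Acaca), chr13:108158624-108158730 (Ndufaf2/Ercc8), chr17:15499752-15499887 (Psmb1/Tbp) and chr7:28741821-28741991 (Mrps12/Sars2).
Med22/Rpl7a: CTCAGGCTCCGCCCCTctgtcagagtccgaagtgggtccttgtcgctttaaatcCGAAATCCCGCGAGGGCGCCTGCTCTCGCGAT
Gtf3c1/D430042O09Rik: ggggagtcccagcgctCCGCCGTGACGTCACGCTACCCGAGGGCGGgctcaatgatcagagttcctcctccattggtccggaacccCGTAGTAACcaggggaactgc
Dnajb4/Fubp1: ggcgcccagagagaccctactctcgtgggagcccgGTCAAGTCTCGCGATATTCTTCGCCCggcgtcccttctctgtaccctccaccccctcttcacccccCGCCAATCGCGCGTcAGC
Fbh1/Ankrd16: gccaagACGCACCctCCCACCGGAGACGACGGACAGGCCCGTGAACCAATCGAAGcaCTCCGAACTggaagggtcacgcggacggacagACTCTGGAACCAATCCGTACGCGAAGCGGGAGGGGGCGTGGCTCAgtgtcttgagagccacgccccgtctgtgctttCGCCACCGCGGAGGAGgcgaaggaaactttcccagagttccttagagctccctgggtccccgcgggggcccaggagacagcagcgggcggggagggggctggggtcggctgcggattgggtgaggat
Mphosph9/2810006K23Rik: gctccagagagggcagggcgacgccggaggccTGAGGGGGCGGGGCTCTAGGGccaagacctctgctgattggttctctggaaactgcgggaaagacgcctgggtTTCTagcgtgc
Rita1/Ddx54: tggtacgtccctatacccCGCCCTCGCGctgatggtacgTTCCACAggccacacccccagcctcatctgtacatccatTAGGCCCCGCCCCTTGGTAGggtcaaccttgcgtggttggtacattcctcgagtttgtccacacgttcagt
Mob3a/Izumo4: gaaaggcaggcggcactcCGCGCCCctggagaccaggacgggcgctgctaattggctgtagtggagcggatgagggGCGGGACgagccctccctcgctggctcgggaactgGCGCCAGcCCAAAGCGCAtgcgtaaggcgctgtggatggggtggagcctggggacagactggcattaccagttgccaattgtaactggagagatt
Tada2a/Acaca: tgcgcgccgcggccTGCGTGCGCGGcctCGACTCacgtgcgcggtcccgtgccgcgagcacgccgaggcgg
Ndufaf2/Ercc8: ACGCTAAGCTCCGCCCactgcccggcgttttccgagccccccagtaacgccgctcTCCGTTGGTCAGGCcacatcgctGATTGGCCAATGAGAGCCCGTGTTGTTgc
Psmb1/Tbp: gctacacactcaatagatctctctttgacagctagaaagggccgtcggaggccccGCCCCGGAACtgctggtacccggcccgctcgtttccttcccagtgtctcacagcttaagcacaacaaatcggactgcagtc
Mrps12/Sars2: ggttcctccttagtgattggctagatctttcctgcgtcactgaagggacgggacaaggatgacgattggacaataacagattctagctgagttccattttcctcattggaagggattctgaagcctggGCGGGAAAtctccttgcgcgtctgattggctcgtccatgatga

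In Med22/Rpl7a, 48 of the 86 bases between the starts lay in shared footprints, and the GC box was among them. Ndufaf2/Ercc8 had 57 of 107 bases in shared footprints, which held both of its CCAAT boxes and its GC box. Gtf3c1/D430042O09Rik had 39 of 107 bases in them, including the whole cyclic AMP response element TGACGTCA, while its CCAAT box lay outside. At the other end, Mrps12/Sars2 had 4 CCAAT boxes between its starts and none in a shared footprint, where 8 of 171 bases lay. Psmb1/Tbp had 10 of 136 bases in shared footprints, over its GC box.

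Almost all pairs were open, meaning that a peak of each replicate overlapped the region. A peak was present in 704 pairs (93.4%) in replicate 1 and in 695 pairs (92.2%) in replicate 2, and 695 pairs (92.2%) were open in both. Of all protein-coding genes, 48.8% were open by peaks of the 2 replicates lying 500 bp or less from the outermost start. A pair's region is longer and holds 2 starts. In 684 of the 754 pairs the starts lay at most 500 bp apart, so a window around either start still holds both. Both genes can then be counted on the same peak, here and in later comparisons of equal windows. To remove the difference in length only, the genes were also compared in equal windows of 1001 bp. In these, 1350 of the 1487 paired genes (90.8%) were open, against 528 of 689 genes (76.6%) that stand head to head with a long noncoding RNA (lncRNA) gene under the same distance rule and 8818 of the 19762 other protein-coding genes (44.6%). With the longer of the deposited peak lists, 702 pairs (93.1%) were open, and the share of all genes was 54.1%. No pair had a peak in replicate 2 alone, 9 had a peak in replicate 1 alone, and 50 were closed in both.

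The peaks of pairs were strong for their libraries. The strongest peak of an open pair had a median deposited signal of 5.24 in replicate 1 (quartiles 3.85 and 7.15, range 0.507 to 25.6) and 2.33 in replicate 2 (quartiles 1.76 and 2.96, range 0.413 to 11.3). The median over all peaks was 1.44 in replicate 1 and 0.803 in replicate 2, so the median pair stood at percentiles 87.4 and 92.4 of all peaks. Choosing the strongest peak of a region favours high values. In equal windows, which mostly still held both starts of a pair, medians were 5.24 and 2.33 in open paired genes for replicates 1 and 2. They were 4.77 and 1.95 in open genes beside a lncRNA gene and 4.07 and 1.73 in other open genes. The deposited signal has no stated scaling, and replicate 1 was higher in 690 of the 695 open pairs, with a median log2 ratio of 1.23 (quartiles 0.95 and 1.46). Ranks of the pairs were alike in both replicates (Spearman's rho 0.78 over 695 pairs, which share depth and base composition within each library), against 0.87 over 8818 other open genes. Signal quartiles of those genes were 2.46 and 5.99 in replicate 1 and 1.09 and 2.42 in replicate 2, a wider spread than in pairs. The part of this spread in the lower rho of pairs was not tested. Strongest peaks were also wider than peaks at large, at a median of 220 and 280 bp in replicates 1 and 2, against 180 and 200 bp over all peaks. Widths were not compared with those at other promoters, so this difference may not be particular to pairs.

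**Figure D1:**
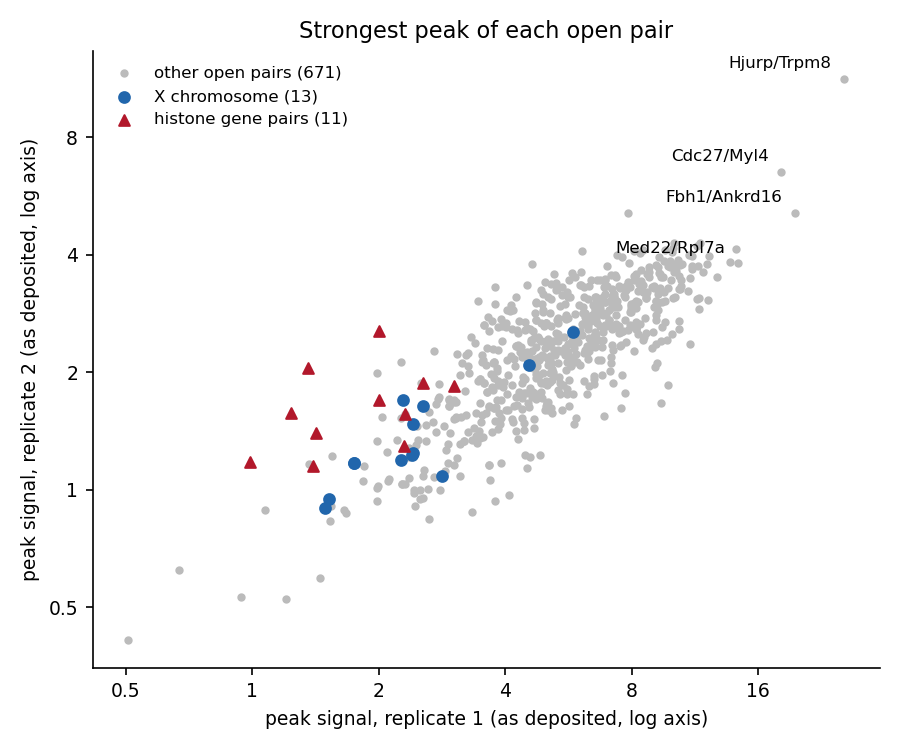
Deposited signal of the strongest peak of each of the 695 open pairs in replicate 1 (x axis) and replicate 2 (y axis), both on log axes, with each point 1 pair, X-linked pairs as blue circles and histone gene pairs as red triangles. Hjurp/Trpm8 stood highest in both replicates at 25.6 and 11.3. The histone pairs lay at 3.02 or less in replicate 1 and at 2.55 or less in replicate 2.

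Among the 10 pairs with the highest signal ranks over both replicates, 9 are described here. Hjurp/Trpm8, with starts at chr1:88277633-88277661, had the highest signal in both replicates, at 25.6 and 11.3. Hjurp loads the centromeric histone variant CENP-A, and Trpm8 is the cold-sensing channel of sensory neurons. Cdc27/Myl4 reached 18.2 and 6.53 and Fbh1/Ankrd16 19.6 and 5.12. Cdc27 is a subunit of the anaphase-promoting complex, Myl4 a myosin light chain of atrial and embryonic muscle, and Fbh1 a DNA helicase. Med22/Rpl7a, a Mediator subunit beside a protein of the large ribosomal subunit, had 14.3 and 3.80, and Deaf1/Tmem80, with the transcription factor Deaf1, had 14.2 and 4.13. Hnrnpa2b1/Cbx3, an RNA-binding protein beside the heterochromatin protein HP1 gamma, had 12.2 and 3.98. Gtf3c1/D430042O09Rik, with a subunit of the RNA polymerase III factor TFIIIC, had 11.7 and 4.28. Agtpbp1, an enzyme that trims tubulin tails, and Naa35, part of an N-terminal acetyltransferase, shared a region at 11.5 and 4.22. Dnajb4/Fubp1, a heat shock protein of the Hsp40 family beside a DNA-binding regulator of Myc, had 11.2 and 3.98. The starts of these 9 pairs were 28 to 466 bp apart.

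Starts of a pair were close together in most cases, with a median distance of 129.5 bp (quartiles 67 and 240 bp, range 1 to 987 bp), and 618 pairs (82.0%) had them at most 300 bp apart. The share of open pairs was 94.9% of 312 pairs at 1 to 100 bp, 90.8% of 206 at 101 to 200 bp, 93.0% of 100 at 201 to 300 bp, 95.5% of 66 at 301 to 500 bp and 80% of 70 at 501 to 1000 bp. Signal changed little over these classes: medians in replicate 1 were 5.18, 5.25, 5.15, 5.60 and 5.07, and in replicate 2 2.18, 2.42, 2.58, 2.54 and 2.27. No step was seen at the rule's limit of 1000 bp, but too few pairs lie near it to exclude one. Of 11 pairs at 904 to 987 bp, 8 were open, with median signals of 4.52 and 2.16, and of 12 pairs just outside at 1007 to 1096 bp, 9 were open, with medians of 4.40 and 1.89.

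What changed with distance was how peaks were laid out. A peak that covered both starts was found in 404 open pairs (58.1%) in replicate 1 and 447 (64.3%) in replicate 2, in both replicates in 350 (50.4%), and in neither in 194. In both replicates it was found in 83.8% of open pairs at 1 to 100 bp, 46.5% at 101 to 200 bp, 12.9% at 201 to 300 bp, 4.76% at 301 to 500 bp and in none of 56 pairs at 501 to 1000 bp. A peak of the median width cannot span starts that lie farther apart than that width, so part of this order is set by the distances themselves. Regions with 2 or more peaks made up 31.8% of open pairs in replicate 1 and 25.0% in replicate 2 at 1 to 100 bp, and 71.4% and 58.9% at 501 to 1000 bp. A region lengthens with the distance between its starts, which leaves room for more peaks, and the part of length was not tested. The centre of the strongest peak lay between the starts in 61.7% of open pairs in each replicate, a median of 42 and 47 bp from the midpoint, with a median signed offset of 0 and 1.5 bp, so it leaned to neither strand.

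**Figure D2:**
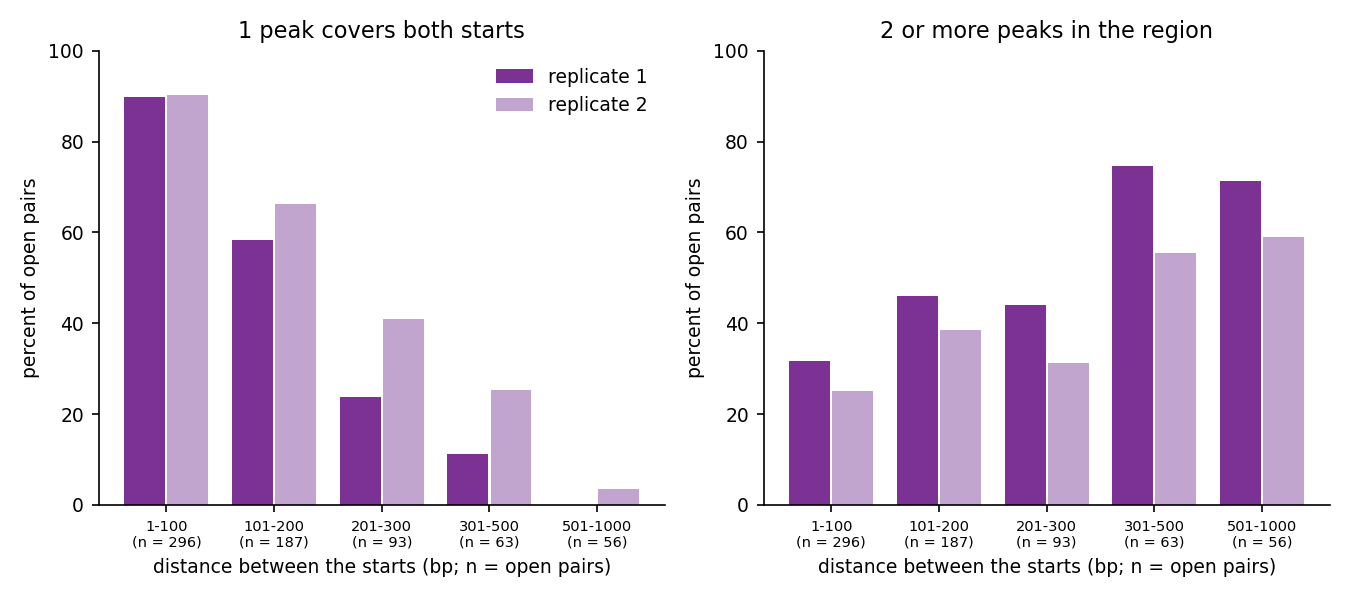
Percent of open pairs in which 1 peak covers both starts (left) and in which the region holds 2 or more peaks (right), by distance between the starts, for replicates 1 and 2. The left bars fell with distance from 89.9% and 90.2% to 0% and 3.57%, and the right bars were higher above 300 bp than below it.

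The interval between the starts was accessible along its whole length in most pairs. The deposited cut-rate files give a false discovery rate (FDR) of the cut rate for stretches of bases, by a method that is not stated, and list values up to 0.05 only. Every base between the starts had an FDR of 0.05 or less in 651 open pairs (93.7%) in replicate 1 and 653 (94.0%) in replicate 2. At the stricter 0.001, the base at the midpoint was listed in 99.3% of open pairs in each replicate at 1 to 100 bp and in 96.8% at 301 to 500 bp. At 501 to 1000 bp it was listed in 60.7% of pairs in replicate 1 and 52.5% in replicate 2, and the highest shares there, 78.6% and 80.4%, lay 390 bp from the midpoint. The lower share at the midpoint is an average over 56 pairs, and over 50% of them still had that base listed in each replicate. In these widest pairs the median share of bases between the starts at an FDR of 0.05 or less was 99.1% and 94.7% in replicates 1 and 2. It was 100% in each closer class. Other open genes also had most bases near the start listed at 0.001. These were 91.0% and 86.3% of genes at the start and 83.3% and 77.8% at 130 bp upstream. Accessible bases there are thus not particular to pairs.

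Seen from a start, paired genes were open on the upstream side. Among open genes, a mean of 401 and 392 of the 500 upstream bases were at an FDR of 0.001 or less in replicates 1 and 2 in paired genes, against 272 and 260 in other genes. Downstream, the means were 320 and 302 bases in paired genes and 343 and 294 in other genes, so the order was turned round in replicate 1 and the difference was small in replicate 2. Genes beside a lncRNA gene lay between, with 350 and 333 upstream bases. The base 400 bp upstream was listed in 61.1% and 58.9% of open paired genes, against 24.8% and 24.7% of other open genes. This side of a paired gene holds its partner's start, so the comparison is not independent of the rule.

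**Figure D3:**
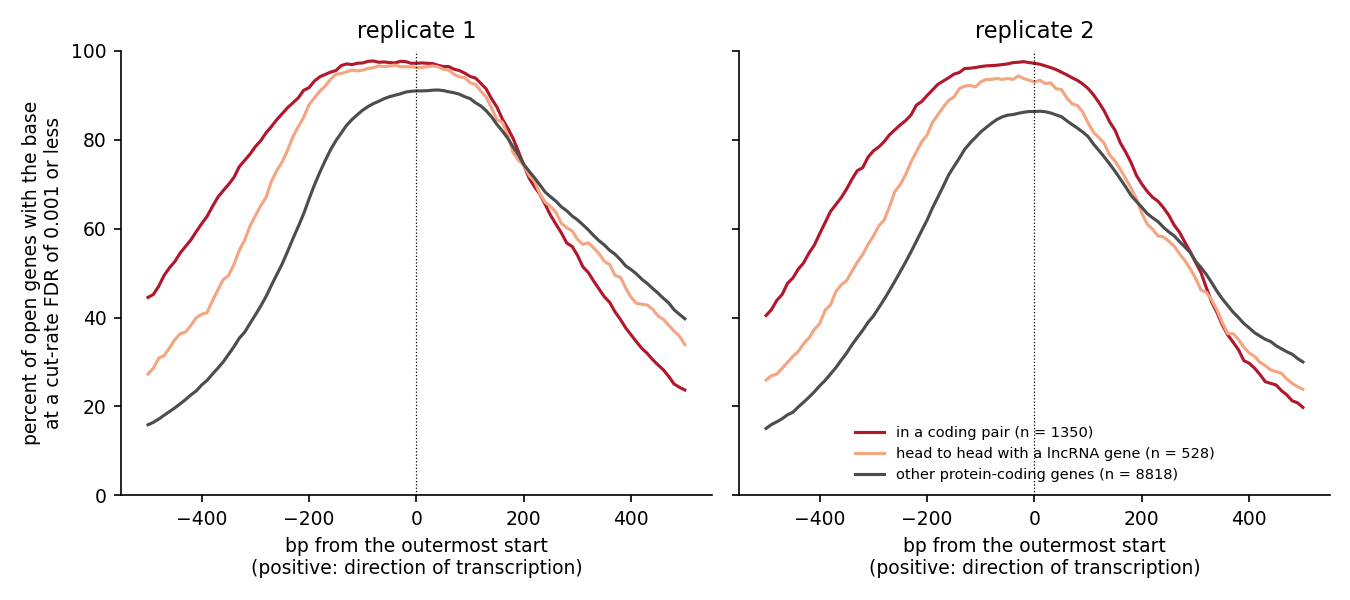
Percent of open genes in which each base is at a cut-rate FDR of 0.001 or less (y axis), by distance from the outermost start in the direction of transcription (x axis), for replicate 1 (left) and replicate 2 (right). Paired genes (red) lay above other genes (grey) upstream, by 61.1% against 24.8% at 400 bp in replicate 1, and below them 400 bp downstream, by 36.1% against 50.8%.

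CpG content differed between paired and other genes, and openness rises with it genome-wide. The CpG observed to expected ratio, taken in 1000 bp around the start, had a median of 0.775 in paired genes, 0.756 in genes beside a lncRNA gene and 0.495 in other genes. In the upper 5 deciles of this ratio stood 1315 paired genes (88.4%). Within deciles the paired genes were still open more often from the fifth upward: 71.7% against 45.6% of other genes in the fifth, 88.5% against 67.2% in the sixth, 95.3% against 78.9% in the seventh, and 98.5% against 89.9% in the highest. Genes beside a lncRNA gene lay between, at 58.7%, 85.3%, 87.6% and 91.5% in these same deciles, so a higher share than in other genes was not particular to coding pairs. Median signals of open genes in the highest decile were 5.89 and 2.42 in paired genes and 4.89 and 1.98 in other genes. In genes beside a lncRNA gene they were 4.91 and 2.09. In the ninth decile the medians were 5.63 and 2.35 in paired genes, 5.52 and 2.23 beside a lncRNA gene and 4.88 and 2.02 in other genes. In the lowest 3 deciles, which held 46 paired genes (8, 18 and 20), 1 was open. In the fourth, 18.5% of 27 paired genes were open, against 41.2% of 34 genes beside a lncRNA gene and 16.2% of other genes. Transcription was not measured here, and its part in these shares was not tested.

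**Figure D4:**
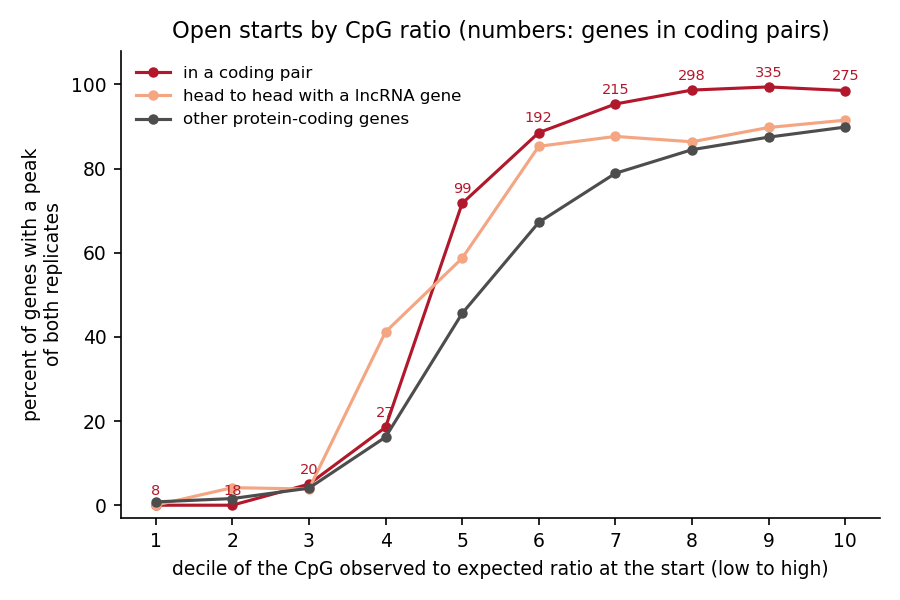
Percent of genes open in equal windows around the outermost start (y axis), by CpG ratio decile (x axis), for genes in coding pairs, genes head to head with a lncRNA gene and other protein-coding genes, with the number of paired genes printed. Paired genes stood above other genes from the fifth decile (71.7% against 45.6%) to the highest (98.5% against 89.9%), and the lowest 2 deciles hold under 20 paired genes each.

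Footprints filled more of the interval than of its flanks. Open pairs held a median of 7 footprints in replicate 1 (quartiles 5 and 9, at most 16) and 5 in replicate 2 (quartiles 4 and 8, at most 17). Between the starts, 22.7% and 18.6% of bases lay in footprints, against 5.68% and 3.75% in the flanks. A footprint of replicate 1 counted as shared where a footprint of replicate 2 covered at least 50% of the shorter of them, and 663 open pairs (95.4%) had at least 1, with a median of 3. In open pairs 46.6% of 4832 footprints of replicate 1 and 58.6% of 4044 of replicate 2 were shared, against 28.3% and 45.7% of all footprints in the genome. The shared fraction and the contrast with the flanks were not computed for other open promoters, so they may not be particular to pairs. Footprints per gene in equal windows had medians of 7 and 5 in open paired genes and 5 and 4 in other open genes. The medians were 6 and 5 both in open genes beside a lncRNA gene and over all open genes. Paired genes were thus no higher than these in replicate 2. Footprints can be called more readily where more cuts fall, and the part of signal in these counts was not tested.

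The pairs with most shared footprints were Mob3a/Izumo4 and Rita1/Ddx54 with 10 each, and Mphosph9/2810006K23Rik, Aasdhppt/Kbtbd3 and Mms19/Ubtd1 with 9 each. Izumo4 belongs to a family known from sperm, Rita1 is a regulator of Notch signalling, Ddx54 an RNA helicase, and Mms19 a factor that delivers iron-sulphur clusters to DNA repair enzymes. Their signals were 5.64 and 2.76 for Mob3a/Izumo4, 9.63 and 4.12 for Rita1/Ddx54 and 10.9 and 3.23 for Mphosph9/2810006K23Rik. Most footprints did not go with the strongest peak: Hjurp/Trpm8 had 7 and 5 footprints, of which 2 were shared.

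Several motifs of factors known from such promoters were more frequent in pairs, and the share lying in footprints differed between motifs. Each motif was sought on both strands in 300 bp, centred on the midpoint of a pair or 64 bp upstream of the start of other genes, and a match was in a footprint where shared footprints covered at least 50% of it. These covered 10.4% of window bases in open pairs and 7.19% in other open genes. The ETS motif CCGGAAG was present in 207 of 695 open pairs (29.8%), against 18.3% of other open genes and 11.3% of all genes. NRF1, a factor of nuclear genes for mitochondria, had its consensus in 18.1% of open pairs, 11.0% of other open genes and 6.14% of all genes. The YY1 motif AAGATGGC was in 9.21%, 4.89% and 3.26%, and the GC box GGGCGG of Sp and Klf factors in 70.8%, 65.8% and 44.2%. The TATA box, as TATAAA, was in 4.32% of open pairs, 5.75% of other open genes and 11.8% of all genes. Pairs and other genes differ in CpG content, which raises matches of CpG-bearing motifs, and its part in these shares was not tested. The YY1 motif holds no CpG. The windows also differ in the starts they hold. In 82.0% of all pairs the starts lay at most 300 bp apart, so a window on the midpoint mostly holds both. In other genes the window was placed by the gene's own start only. The part of holding both starts in the higher shares of pairs was not tested.

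Footprints covered 29 of 34 matches (85.3%) of the cyclic AMP response element TGACGTCA in open pairs, against 71.0% of matches in other open genes. This element binds the CREB family, which neurons use to link activity to transcription. For NRF1 they covered 97 of 159 matches (61.0%), against 64.5% in other genes, and for the GC box 328 of 1031 (31.8%), against 22.3%. The BANP motif CTCGCGAG lay in footprints in 10 of 26 matches (38.5%) and the RFX core in 20 of 54 (37.0%). For ETS factors the count was 41 of 265 (15.5%), and for the CCAAT box of NF-Y 58 of 573 (10.1%), about the share of bases. YY1 matches were in footprints in 3 of 67 cases (4.48%), against 15.5% in other open genes. The MEF2 motif, of a factor family of neurons and muscle, was covered in 1 of 23 matches, and AP-1, written TGANTCA, in 2 of 22. A match that lacks a footprint says nothing about whether the factor binds.

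**Figure D5:**
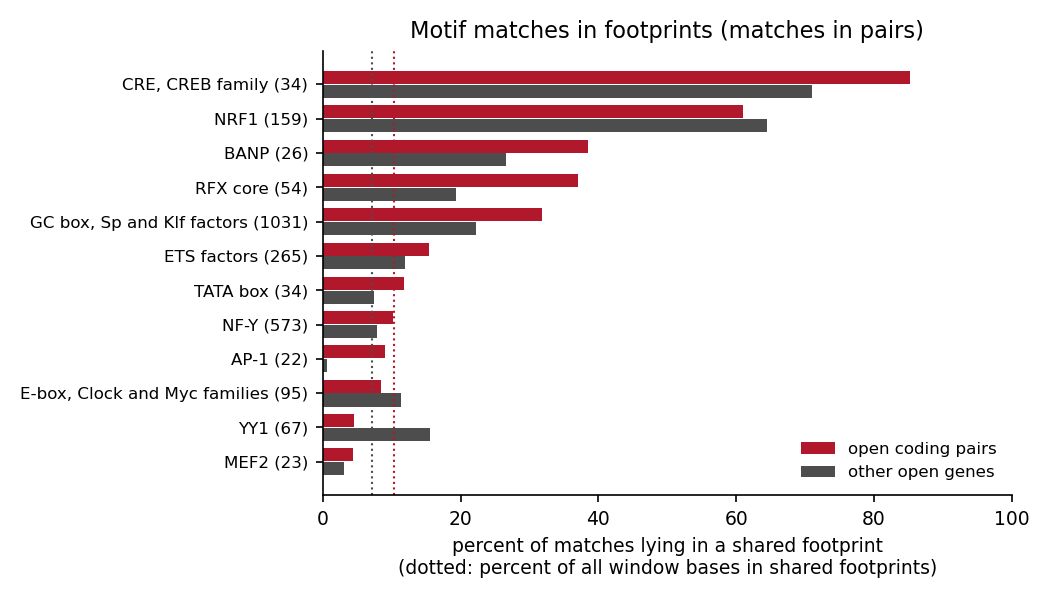
Percent of motif matches that lie in footprints of both replicates (x axis), for motifs with at least 20 matches in open pairs (y axis, number of matches in pairs in brackets), in open coding pairs (upper bars) and other open genes (lower bars). Dotted lines give the share of all window bases in shared footprints, 10.4% in pairs and 7.19% in other genes, which the cyclic AMP response element (85.3%) and NRF1 (61.0%) exceeded most.

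Genes of mitochondria stood in pairs more often than the 6.78% of all protein-coding genes, and their pairs were open about as often as the 92.2% of all pairs. Of 107 oxidative phosphorylation genes by symbol, 24 (22.4%) stood in 24 pairs, all open, with median signals of 5.77 and 2.48. Uqcrq/Gdf9 had the best summed rank among them, at 8.52 and 4.11, while the highest single values of the list were 9.34 and 5.12. Uqcrq is a subunit of respiratory complex III, and Gdf9 is a growth factor of the oocyte. Of 78 genes of mitochondrial ribosomal proteins, 18 (23.1%) were paired, in 18 open pairs with medians of 5.45 and 2.33, highest in Klc4/Mrpl2 at 10.5 and 3.44, and Zfp661/Mrps5, with the weakest summed signal rank over both replicates, had 3.05 and 1.53. Mitochondrial import genes gave 5 open pairs with medians of 4.19 and 1.73, highest in Tomm6/Frs3 at 5.83 and 2.31.

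Pairs of DNA replication and repair genes had medians above those of all open pairs (5.24 and 2.33). In 34 pairs, 33 were open, with medians of 6.26 and 2.61, and 33 of 120 genes of this list (27.5%) were paired. Lig4/Abhd13, with the ligase of non-homologous end joining, had 9.52 and 3.50, and Cenpj/Parp4, a centriole protein beside a member of the poly(ADP-ribose) polymerase family, had 0.941 and 0.533. The exception, Pinlyp/Xrcc1, was closed at the paired starts, but Xrcc1, the scaffold of single-strand break repair, was open at other annotated starts with 8.34 and 3.53. Mediator and RNA polymerase subunits gave 14 open pairs with medians of 6.17 and 2.50 and were highest in Med22/Rpl7a. Zinc finger factors gave 23 pairs, of which 21 were open, with medians of 5.07 and 2.33. Zfp654/Cggbp1 had 8.32 and 3.36 and Zfp944/Zfp758 0.669 and 0.623, among the lowest values of any open pair.

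Pairs of genes for making, folding and degrading proteins were open about as often as the 92.2% of all pairs. Cytosolic ribosomal proteins had 7 of 8 pairs open, with medians of 5.74 and 2.12, and Zwilch/Rpl4 had 4.29 and 1.35. The closed pair was Rnf151/Rps2, where Rps2, of the small ribosomal subunit, was open at other starts with 6.43 and 3.14. All 5 pairs of aminoacyl-tRNA synthetases were open at 5.12 to 6.49 in replicate 1 and 1.76 to 3.57 in replicate 2, among them Orc3/Rars2 at 5.60 and 1.76. All 6 proteasome pairs were open with medians of 4.59 and 1.94, highest in Ftsj3/Psmc5 at 8.81 and 3.73. Chaperones had 11 open pairs with medians of 4.87 and 2.36, from the stress-inducible Hspa1a beside Hspa1l at 1.54 and 0.908 to Dnajb4/Fubp1. Ubiquitin enzymes and F-box proteins had 13 of 14 pairs open, with Fbxo38/Spink10 at 11.8 and 3.61 and Fbxl13/Armc10 at 2.09 and 1.25.

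Histone genes had the highest share in pairs of the 18 lists and had weak peaks. Their median signals lay under the lower quartiles of all open pairs, 3.85 in replicate 1 and 1.76 in replicate 2. Replication-dependent histones package new DNA in S phase and stand in clusters, often H2A beside H2B. Of 67 such genes, 27 (40.3%) stood in 14 pairs, of which 11 were open, with medians of 2.01 (0.985 to 3.02) in replicate 1 and 1.58 (1.15 to 2.55) in replicate 2. Of the 5 open pairs that were not higher in replicate 1, picked out after their values were seen, 4 were histone pairs. Hist1h2an/Hist1h2bp had 2.01 and 2.55, Hist1h2ag/Hist1h2bj 1.36 and 2.06, Hist1h2ae/Hist1h2bg 1.24 and 1.58, and Hist1h2ak/Hist1h2bn 0.985 and 1.18. The fifth pair was Ccdc146/Fam185a at 1.99 and 2.00. Bola1/Hist2h2ab, at 1.40 and 1.15, had the weakest summed rank of the histone pairs, although 3 of those above were lower in replicate 1. Near-identical histone copies can share reads, and how the authors placed such reads is not given in the sources used here, so these values are uncertain.

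Few genes of neuronal families stood in pairs, against 6.78% of all protein-coding genes. No pair held any of 138 potassium, sodium and calcium channel genes, of which 40.6% were open at their outermost start, against 48.8% of all genes. Of 88 neurotransmitter receptor genes, 1 was paired, Grik5, a kainate receptor subunit, whose region with Zfp574 had a peak of 1.10 in replicate 1 and none in replicate 2. Of 69 protocadherin genes 1 was paired, in the closed pair Pcdh12/Rnf14. No keratin gene of 113 was paired. Of 1466 olfactory and vomeronasal receptor genes 1 was paired, Vmn1r4, whose region with Nt5c3 was open at 3.22 and 2.22, while 4 genes of that list were open in all. As in Hjurp/Trpm8, Cdc27/Myl4 and Uqcrq/Gdf9, the open region there lay between a gene known from another organ and a partner, and the peak cannot be assigned to either.

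Pairs on the X chromosome, of which females silence a copy in each cell, had low signals, a comparison chosen after the values were seen. Of 20 X-linked pairs, 13 were open (65%), against 682 of 734 autosomal pairs (92.9%). Among other protein-coding genes, 33.1% were open on the X chromosome and 45.6% on autosomes. Open X-linked pairs had median signals of 2.40 (1.49 to 5.82) and 1.23 (0.900 to 2.54), against 5.31 and 2.35 in autosomal pairs. Fam90a1b/Apoo, at 5.82 and 2.54, and Idh3g/Ssr4, at 4.55 and 2.09, stood apart from the other 11, which had at most 2.83 and 1.70. The X-linked pairs Ndufa1/Rnf113a1 (2.83 and 1.09), Psmd10/Atg4a (2.41 and 1.47) and Pqbp1/Timm17b (2.42 and 1.25) had the weakest summed signal ranks of the oxidative phosphorylation, proteasome and import lists. Other X-linked genes had medians of 1.94 and 0.893, against 4.16 and 1.76 in other autosomal genes, so the low level was not particular to pairs. The median CpG ratio of all pairs was 0.628 on the X chromosome and 0.764 on autosomes. In open pairs it was 0.693 and 0.777, and the part of CpG content in these differences was not tested.

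The closed pairs were poor in CpG. Their median ratio was 0.323 (0.0964 to 0.923), against 0.774 in open pairs, and their median start distance was 145 bp, against 127 bp. In the longer peak lists 2 of the 50 had peaks of both replicates, 11 a peak of 1 replicate and 37 none. Footprints were found in 11 closed pairs (26 footprints) in replicate 1 and in 2 closed pairs (2 footprints) in replicate 2. In 16 closed pairs a gene was open at another of its annotated starts, as in Ccnt1, the cyclin of the elongation factor P-TEFb, at 12.2 and 4.20, Dgcr2 at 7.48 and 2.96, Trim28, a corepressor, at 6.76 and 2.76, Nisch at 6.41 and 1.98, and Rnf14 at 4.38 and 1.64. In these the outermost start of the gene, which the rule used, was not where its peak lay. In the other 34 closed pairs neither gene was open at any start.

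Several closed pairs hold genes known from cell types other than neurons, which were picked here after their values were seen. They include Pecam1/Milr1 (Pecam1 marks endothelium), Odf3l1/Cspg4 (Cspg4, or NG2, marks oligodendrocyte precursors and pericytes), Aspa/Spata22 (Aspa marks mature oligodendrocytes), Smyd1/Cd8b1 (muscle and cytotoxic T cells) and Lypd4/Dmrtc2 (male germ cells). Being closed pairs, these 5 lack a peak in the stricter lists by definition, and Odf3l1/Cspg4 had 1 in the longer list of replicate 1, at 0.728. Closed pairs left out of this choice include Sncg/Mmrn2 and Lrrc74b/P2rx6, where Sncg and P2rx6 do not go with it. The 5 pairs therefore show no trend by cell type. The 10 closed pairs with the highest CpG ratio included the histone pairs Hist1h2bq/Hist1h2ao (0.923), Hist1h2ap/Hist1h2br (0.906) and Hist1h2ba/Hist1h2aa (0.709). The others among these 10 were N4bp3/D930048N14Rik (0.803), Nup62cl/Pih1h3b, Gm10447/Shroom1, Tradd/Fbxl8 (0.628), Klc3/Ckm (0.619), Gm4779/8030474K03Rik and Duox2/Duoxa2 (0.556). Tradd is an adaptor of the TNF receptor, Ckm the creatine kinase of muscle, and Duox2 with its maturation factor Duoxa2 makes hydrogen peroxide in the thyroid. N4bp3/D930048N14Rik and Tradd/Fbxl8 had weak peaks in the longer list of replicate 1, at 1.01 and 0.897, and none in replicate 2. Zfp558/Mbd3l1 was the closed pair of the zinc finger list, and there Zfp558 was open at another start with 1.96 and 0.818.

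Among the 9 pairs with a peak in replicate 1 alone, the highest signals were 1.97 in Tbc1d16/Ccdc40, 1.88 in Kirrel2/Nphs1, 1.43 in Il17rb/Chdh, 1.32 in Nr2e1/Ostm1 and 1.20 in Rom1/Eml3. Nphs1 encodes nephrin of the kidney filter, and Nr2e1 is a nuclear receptor of neural stem cells. Tbc1d16/Ccdc40 had 80.6% of its region at a cut-rate FDR of 0.05 or less in replicate 1 and 8.19% in replicate 2. Nr2e1/Ostm1 had 11 footprints in replicate 1 and 0 in replicate 2. In 6 of these 9 pairs the longer list of replicate 2 held a peak, and all 5 named values lay under the lower quartile of open pairs in replicate 1.

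Pairs known from textbooks were open about as often as all pairs (92.2%). Of 23 such pairs listed, 11 met the rule, 11 were left out because their outermost transcripts overlap in this annotation, among them Hspd1/Hspe1, and Col4a5/Col4a6 was left out at 1309 bp. Of the 11 that met it, 10 were open, and 8 of these are described here. Atm/Npat, the DNA damage kinase beside the coactivator of histone genes, had 9.42 and 3.51, and Ndufaf2/Ercc8, a complex I assembly factor beside a nucleotide excision repair protein, had 9.27 and 2.88. Psmb1/Tbp, a proteasome subunit beside the TATA-binding protein, had 8.19 and 2.69. Mrps12/Sars2 had 6.49 and 2.98. Gart/Son had 5.34 and 2.47, Mcm4/Prkdc, the replicative helicase subunit beside the DNA-dependent protein kinase, 5.32 and 3.26, and Brca1/Nbr1 3.45 and 3.05. Tada2a/Acaca, with the first enzyme of fatty acid synthesis, was the lowest at 2.80 and 0.998. The closed pair was Col4a4/Col4a3, collagens of the basement membrane of kidney, lung and inner ear, with starts 72 bp apart, a CpG ratio of 0.432 and no peak or footprint in either library.

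The libraries held 61466 and 50379 peaks in the stricter lists and 104506 and 91751 in the longer ones, for replicates 1 and 2. Outermost starts were open for 4 of 5 neuronal markers (Camk2a, Snap25, Stmn2 and Syt1), 3 of 4 of hippocampal excitatory neurons (Emx1, Neurod2 and Neurod6), 1 of 3 of astrocytes (Gfap), and for none of 3 each of oligodendrocytes, microglia and endothelium and of 6 foreign to the tissue. Replicate 1 had a peak at 2 astrocyte markers, 1 of oligodendrocytes and 1 of endothelium, and replicate 2 at all 4 of hippocampal excitatory neurons. Other starts of the markers were not scored, so these counts do not show that a cell type is absent.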

How the data were processed

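Each file was made from the alignments of 1 library on mm10, per the deposited descriptions and the labels. No source used here names the aligner, peak caller, filters or read placement. The deposited signal of each peak is a whole multiple of a step per library, of unstated scaling, so replicates were not rescaled. The deposited p-value of the cut-rate and footprint files is an FDR, listed up to 0.05 and constant at 0.01. Reads of a B6 and CAST hybrid were set on a B6 reference. Depth is unknown, since the files used hold no tag counts, and no counting interval is given.

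Genes were GENCODE M21. The main peak list was the shorter per library. A region was open where a peak of each replicate overlapped it by 1 bp. Other protein-coding genes include pairs with overlapping transcripts. The CpG ratio and 14 consensus motifs came from the GRCm38.p6 genome. Named were the 10 open pairs with the best summed signal ranks, the 10 closed pairs with the highest CpG ratio, the 5 pairs of 1 replicate with the highest signal, the 5 with most shared footprints, listed textbook pairs, and the extremes and closed pairs of 18 symbol-defined gene groups. Sequences came from those with starts 60 to 300 bp apart. Members and lists were chosen with earlier results of these data known. How shared footprints are counted per pair, and which and how many of the eligible sequences are printed, were settled after first results were seen. A few named pairs are not reported here. The counting steps were tested on simulated data. Python 3.11.15, numpy 2.4.6, pandas 2.3.3, pysam 0.24.0, samtools 1.23.1 and matplotlib 3.10.9 were used. Alternatives were the longer list, stronger peaks, each library alone, basic transcript starts, a 500 bp limit, a 250 bp flank, overlap rules and a stricter FDR.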

Additional observations from a re-analysis of the deposited data

How the results depend on the processing

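The share of open pairs was 92.2%. It was 93.1% with the longer peak lists, 90.6% with the stronger 50% of peaks, 93.4% with starts at most 500 bp apart, and 92.2% to 93.4% with 1 library left out. For genes outside these pairs and lncRNA pairs the share of 44.6% became 50.3%, 37.8% and 45.3% to 51.1% under the longer lists, the stronger peaks and 1 library. A peak over both starts in 50.4% of open pairs became 57.5% to 64.3% with 1 library, which asks less by its construction. The median share of region bases at a low cut-rate FDR, 81.6% over both libraries, became 100% with a 250 bp flank and 67.4% at an FDR of 0.001 or less. The other 44 recomputed values stayed within the spread between the libraries, or within 1.5 times for counts. These bounds are wide, so staying within them says little about stability. The 695 open pairs, out of 754, could not have risen by 1.5 times. For signal, the spread of 2.06 came from unscaled libraries with medians of 5.24 and 2.33. Transcript starts tagged basic gave 787 pairs, of which 681 were among the 754, and 726 were open. No paired analysis was possible because the samples form 1 group. Precision is limited by 2 libraries of unknown depth and of unstated animal source.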
